A study of Mus musculus with 16 samples.

Results

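The report follows 10 genes by which the liver makes the clotting proteins of plasma, in mice with and without Mfap2 during repeated liver injury and after it ended. They were found by their symbols among 13715 genes listed at 8 weeks and 12922 listed after cessation, and all 10 were present in both tables and passed the filter on low values. They are the fibrinogen chain genes Fga, Fgb and Fgg, the genes of the vitamin K-dependent clotting zymogens prothrombin (F2) and factors VII, IX and X (F7, F9, F10), the cofactor gene F5, and the genes of the anticoagulants antithrombin (Serpinc1) and protein C (Proc). Expression was read by bulk RNA sequencing of frozen liver from 16 mice in 4 groups of 4. At one stage Mfap2+/+ (wild-type) and Mfap2-/- (knockout) mice had received carbon tetrachloride (CCl4) intraperitoneally for 8 weeks, and at the other the same genotypes had 8 weeks of CCl4 followed by 4 weeks of cessation. All 4 groups had received CCl4, and uninjured mice were not analysed here. The labels give no age, sex, strain or cell type of the deletion. CCl4 is a hepatotoxin whose repeated injection scars the liver, and Mfap2 encodes microfibril-associated glycoprotein 1, a protein of the extracellular matrix whose role in experimental fibrosis the study addressed.

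Hepatocytes secrete almost all plasma clotting proteins. Clotting zymogens are cleaved in sequence until factor Xa, with factor Va as its cofactor, turns prothrombin into thrombin, and thrombin cuts fibrinogen, a protein built from Aα, Bβ and γ chains, into the fibrin of a clot. Antithrombin blocks thrombin and factor Xa, and activated protein C inactivates factors Va and VIIIa. Fibrinogen is also a classical acute phase protein, induced in hepatocytes by interleukin 6 (IL-6) through Stat3, whereas most of the other clotting genes depend mainly on hepatocyte transcription factors.

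At 8 weeks the mean level of all 10 genes was lower in knockout than in wild-type livers, and after cessation the 3 fibrinogen chain genes were higher on average in the knockout while the other 7 lay near the wild-type level. None of these genotype differences passed the test across all genes, and the genotypes overlapped for every one of the 10 genes at both stages. Relative to albumin, itself lower on average in the knockout, all 10 genes were higher on average in the knockout at both stages, none past the threshold after adjustment. With 4 mice per genotype a single gene could not pass that threshold, however well separated, so that this outcome does not show equal ratios. The ratio of Fgb to albumin had no overlap at either stage. Higher ratios to albumin without overlap were found for 15.7% of all genes at 8 weeks and 1.07% after cessation. With other secreted hepatocyte genes as the denominator the chain genes were higher by less. F2, F7, F10, Serpinc1 and Proc were then lower on average in the knockout at 8 weeks, and F5, Serpinc1 and Proc after cessation. Levels are in FPKM, fragments scaled by transcript length and library total, so that genes can be set side by side.

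The fibrinogen chain genes form a cluster on chromosome 3 of mm10. Fgg (ENSMUSG00000033860, plus strand) spans chr3:83007724-83015049, Fga (ENSMUSG00000028001, plus strand) chr3:83026076-83033627 and Fgb (ENSMUSG00000033831, minus strand) chr3:83040141-83049863, in GENCODE M21. Gaps of 11026 and 6513 bases separate Fgg from Fga and Fga from Fgb, and Fgb is read toward the other two. F7 (ENSMUSG00000031443, chr8:13026034-13035809) and F10 (ENSMUSG00000031444, chr8:13037308-13056676) also neighbour each other, 1498 bases apart on the plus strand. Apart from these clusters lie F2 (ENSMUSG00000027249) at chr2:91625320-91636414 on the minus strand, F9 (ENSMUSG00000031138) at chrX:59999464-60030759 on the plus strand, F5 (ENSMUSG00000026579) at chr1:164151838-164220277 and Serpinc1 (ENSMUSG00000026715) at chr1:160978585-161005863, both on the plus strand.

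The promoters of the fibrinogen chain genes are shown because the chain genes had the largest mean differences between the genotypes after cessation. The sequences are RefSeq's for GRCm38.p6, 5′ to 3′ on the strand of the gene, ending just before the annotated start of the gene: Fga at chr3:83025903-83026075 (plus), Fgb at chr3:83049864-83050113 (minus) and Fgg at chr3:83007474-83007723 (plus). Capitals mark matches on either strand to CTGGGA, the core of IL-6 response elements, TTGCNNAA, a C/EBP-type site, and GTTAAT, an HNF1 half-site.
Fga: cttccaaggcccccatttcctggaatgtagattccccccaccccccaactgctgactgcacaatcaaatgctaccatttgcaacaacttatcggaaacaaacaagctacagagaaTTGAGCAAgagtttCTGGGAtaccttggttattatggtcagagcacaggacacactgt
Fgb: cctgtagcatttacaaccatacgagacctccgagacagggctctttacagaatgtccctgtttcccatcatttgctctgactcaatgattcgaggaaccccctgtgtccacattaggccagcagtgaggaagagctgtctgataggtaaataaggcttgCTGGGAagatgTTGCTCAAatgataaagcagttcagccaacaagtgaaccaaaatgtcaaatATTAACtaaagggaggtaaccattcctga
Fgg: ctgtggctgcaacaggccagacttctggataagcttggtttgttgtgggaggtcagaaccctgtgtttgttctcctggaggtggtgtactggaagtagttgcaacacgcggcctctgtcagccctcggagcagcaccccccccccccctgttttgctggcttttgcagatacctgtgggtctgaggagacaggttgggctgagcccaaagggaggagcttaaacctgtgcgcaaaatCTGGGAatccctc
In each of the 3 promoters the CTGGGA core was found once, beginning 121 bases before the RefSeq start in Fga, 91 in Fgb and 13 in Fgg. A C/EBP-type match lay close to the core in both Fga and Fgb, at 135 and 80 bases, and none was found in the Fgg window. The half-site lay at 29 bases in Fgb and at 43 in Fga, the latter beyond the stretch of Fga shown. Of 9 members with a RefSeq promoter window of 250 bases, 5 held CTGGGA (the 3 chain genes, F9 and F10), 3 the C/EBP-type site (Fga, Fgb and F9) and 2 the half-site. Among all 32851 such windows the shares were 27%, 9.56% and 6.43%. No motifs overlapped in the sequences shown. A match describes these letters and not binding.

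The libraries carried the genotype the labels give. Among wild-type livers Mfap2 ranged from 0.902 to 3.07 FPKM at 8 weeks and from 0.17 to 0.47 FPKM after cessation, and its value was 0 in each of the 8 knockout libraries. Even so, Mfap2 did not pass the test across all genes at 8 weeks, at -1.30 ± 0.22 on the log2(FPKM + 1) scale (limma adjusted p = 0.0561). After cessation its mean lay under the filter on low values, so that Mfap2 was not tested. A gene that did not pass is therefore not shown to be unchanged. Albumin (Alb), the main secreted product of hepatocytes, ranged from 16731 to 46316 FPKM over the 16 livers. On the first principal component of all genes at 8 weeks, wild-type mice 1 and 2 lay at -45.7 and -49.4, mouse 3 at -10.4 and mouse 4 at 29.8, the last among the knockout livers (-1.19 to 38.0). After cessation wild-type mouse 1 and knockout mice 2 and 3 lay on the negative side and the other 5 on the positive one. Wild-type mice 1 and 2 at 8 weeks and these 3 libraries are the mice said to stand apart in what follows. In the 3 libraries after cessation 32.4% to 38.1% of FPKM was mitochondrial, against 23.5% to 29.8% in the other 5, and the 8-week table lists no mitochondrial gene. The tables hold no counts, so that depth is unknown.

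Fibrinogen transcripts were the most abundant of the 10 at 8 weeks, in the order Fgg, Fga and Fgb in both genotypes. In wild-type livers the means were 1958 ± 653 (SD, n = 4), 1584 ± 417 and 1014 ± 285 FPKM, followed by F2 at 791 ± 90.3 FPKM, and each of these overlapped with its neighbour in the order. Serpinc1 at 289 ± 82.9, Proc at 257 ± 75.7 and F10 at 177 ± 53.4 FPKM formed a middle tier that did not overlap with F2. F9 at 43.9 ± 17.0, F5 at 35.7 ± 10.7 and F7 at 30.0 ± 7.11 FPKM lay below, again without overlap with the tier above. The order was the same in the knockout at 8 weeks. After cessation the order differed only in Serpinc1, which stood first in wild-type livers at 1645 ± 390 FPKM and second in the knockout at 1564 ± 426 FPKM.

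**Figure D1:**
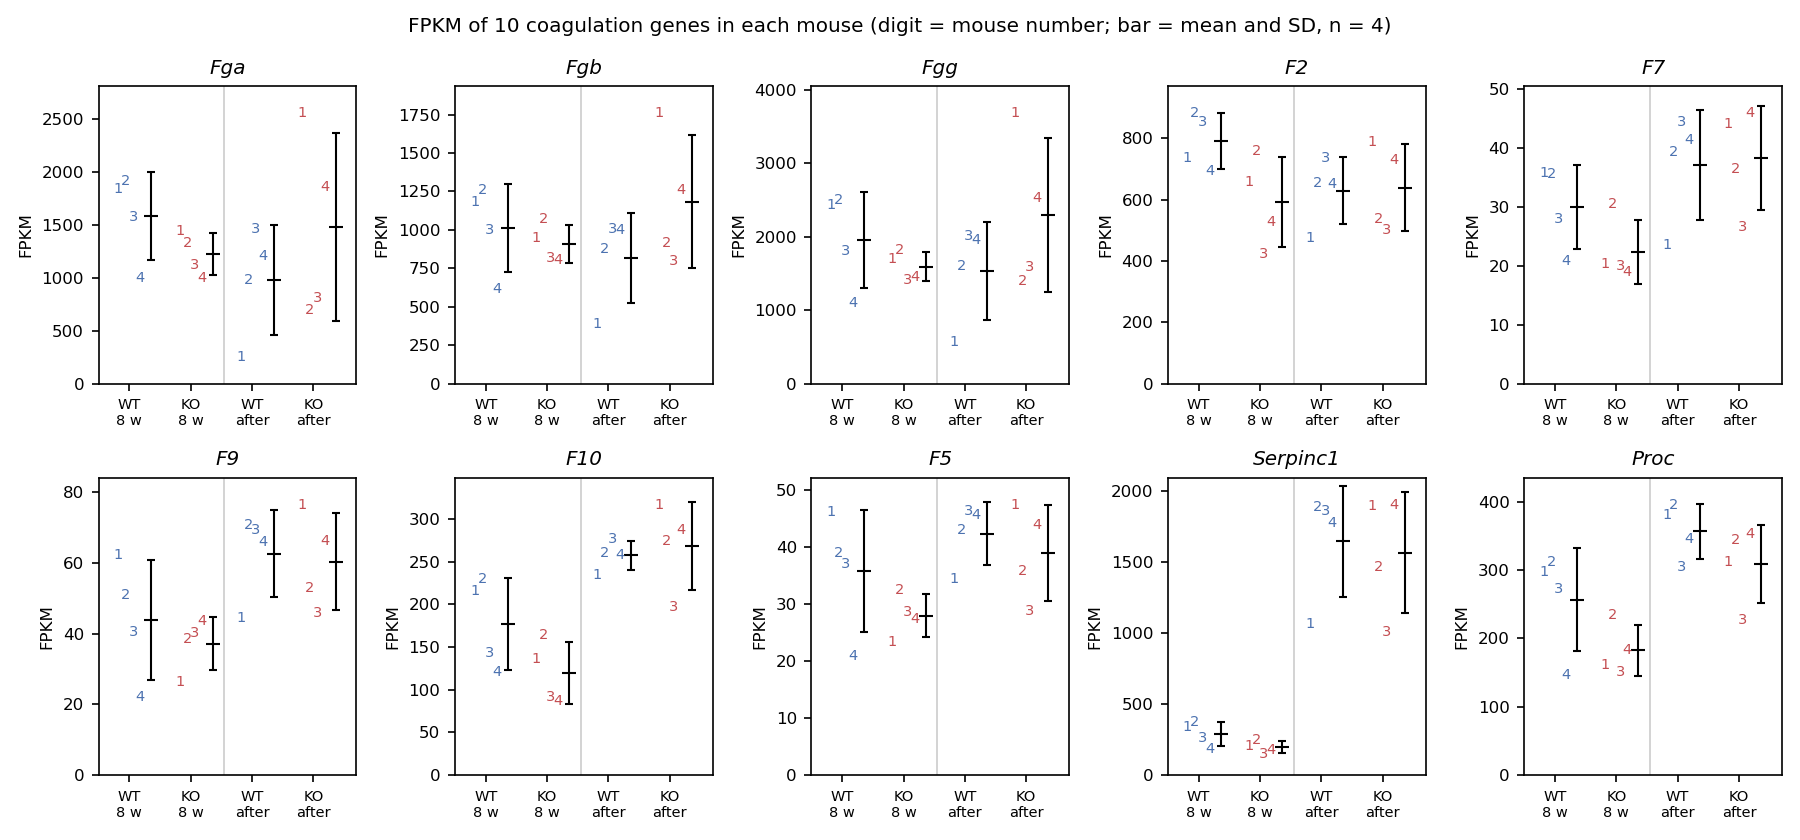
FPKM (vertical axis, starting at 0) of each of the 10 genes in every mouse, by group: wild type (WT) and knockout (KO) at 8 weeks of CCl4 and 4 weeks after CCl4. Digits are mouse numbers and black bars the mean and SD of 4 mice; wild-type mouse 4 is low at 8 weeks for most genes, wild-type mouse 1 is low after cessation for fibrinogen (Fga at 253 FPKM), and Serpinc1 stands far higher in the second table.

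For the fibrinogen chains the first question was whether livers without Mfap2 differed after 8 weeks of CCl4. Values of each mouse are given in the order of mouse numbers 1 to 4. Fga, the Aα chain gene, stood at 1846, 1918, 1574 and 999 FPKM in the 4 wild-type mice and at 1443, 1330.3, 1125 and 999 FPKM in the 4 knockout mice. All wild-type livers but that of mouse 4 lay above every knockout liver, and wild-type mouse 4 had about the level of the lowest knockout. The difference, knockout minus wild type, was -0.34 ± 0.27 (SE) on the log2(FPKM + 1) scale, which is used for all differences unless another is named (limma adjusted p = 0.523). Fgb, the Bβ chain gene, stood at 1181, 1256, 999 and 618 FPKM in wild type and 945, 1070.4, 817 and 803 FPKM in the knockout. Wild-type mouse 4 was again lowest, so that the knockout values fell inside the wild-type range, and the difference was -0.12 ± 0.27 (limma adjusted p = 0.811). Fgg, the γ chain gene, had 2432, 2499, 1803 and 1098 FPKM in wild type and 1696, 1812, 1412 and 1450 FPKM in the knockout, a difference of -0.23 ± 0.29 (limma adjusted p = 0.655). The same pattern held, with wild-type mice 1 and 2 highest and wild-type mouse 4 lowest.

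After cessation the chain genes were spread far more widely in both genotypes. Fga stood at 253, 983, 1466 and 1209 FPKM in the 4 wild-type mice and at 2560.0, 694, 812 and 1860.2 FPKM in the 4 knockout mice. Knockout mice 1 and 4 were above every wild-type liver, and knockout mice 2 and 3 were below all wild-type livers except mouse 1. The difference was 0.65 ± 0.58, 1.57-fold on that scale (limma adjusted p = 0.806). Fgb stood at 389, 877, 1004 and 1000.3 FPKM in wild type and 1760.2, 913, 796 and 1263 FPKM in the knockout, a difference of 0.56 ± 0.35 (limma adjusted p = 0.699). Fgg had 564, 1599, 2014 and 1956 FPKM in wild type and 3684, 1396, 1586 and 2528 FPKM in the knockout, a difference of 0.63 ± 0.44 (limma adjusted p = 0.732). In both genes, too, knockout mice 1 and 4 were above every wild-type mouse and wild-type mouse 1 was far below all others. For Fga and Fgg the 3 lowest libraries, wild-type mouse 1 and knockout mice 2 and 3, are those with the high mitochondrial share, whose part in these values was not tested, and for Fgb wild-type mouse 2 lay below knockout mouse 2. Leaving out 1 mouse moved the difference to between 0.09 and 0.94 for Fga, 0.23 and 0.73 for Fgb and 0.21 and 0.84 for Fgg, the lowest without wild-type mouse 1 and the highest without knockout mouse 2 for Fga and Fgg and without knockout mouse 3 for Fgb. Without the 3 libraries together the differences were 0.86 ± 0.19 for Fga, 0.64 ± 0.15 for Fgb and 0.72 ± 0.18 for Fgg. The limma adjusted p was 0.369 for each, with 3 wild-type and 2 knockout mice left. These libraries were picked from the first principal component of the same data and are the lowest in Fga and Fgg. Leaving them out is therefore a description and no independent test.

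The prothrombin gene F2 encodes the precursor of thrombin. At 8 weeks it had 736, 882, 853 and 694 FPKM in the 4 wild-type mice and at 656, 758, 422 and 528 FPKM in knockout mice. The values of 3 of 4 knockout livers were below every wild-type liver, that of knockout mouse 2 lay within the wild-type range, and the difference was -0.45 ± 0.25 (limma adjusted p = 0.415). After cessation F2 had 475, 655, 734 and 651 FPKM in wild type and 789, 538, 501 and 728 FPKM in the knockout. Each genotype then held low and high livers, and the difference was 0.01 ± 0.21 (limma adjusted p = 0.992).

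F10, whose product is the zymogen of the prothrombin-cleaving protease, showed the largest mean difference of the 10 at 8 weeks. It had 215, 229, 143 and 120.1 FPKM in the 4 wild-type mice and at 135, 164, 91.5 and 87.0 FPKM in knockout mice. Knockout mice 3 and 4 were below every wild-type liver, while knockout mice 1 and 2 lay within the wild-type range, and the difference was -0.56 ± 0.28 (limma adjusted p = 0.365). After cessation the wild-type livers were close together, at 235, 261, 276 and 257 FPKM, against 317, 274, 196 and 287 FPKM in the knockout. Knockout mice 1 and 4 were above and knockout mouse 3 below the whole wild-type range, and the difference was 0.04 ± 0.17 (limma adjusted p = 0.970).

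F7 encodes the zymogen that tissue factor activates to start clotting, and it was the least abundant member. Wild-type mice 1 to 4 had 35.8, 35.5, 27.9 and 20.8 FPKM at 8 weeks, and knockout mice 20.2, 30.5, 19.9 and 18.9 FPKM. Knockout mice 1, 3 and 4 lay just below the lowest wild-type liver and knockout mouse 2 well above them, with a difference of -0.40 ± 0.23 (limma adjusted p = 0.439). After cessation the values were 23.5, 39.3, 44.3 and 41.4 FPKM in wild type and 44.1, 36.5, 26.5 and 45.9 FPKM in the knockout. One liver of each genotype, wild-type mouse 1 and knockout mouse 3, was low, and the difference was 0.05 ± 0.24 (limma adjusted p = 0.974).

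F9 encodes factor IX, the protein missing in haemophilia B. At 8 weeks it had 62.1, 50.9, 40.5 and 22.2 FPKM in the 4 wild-type mice and at 26.2, 38.6, 40.2 and 43.6 FPKM in knockout mice. The knockout livers lay inside the wild-type range, and the difference was -0.17 ± 0.29 (limma adjusted p = 0.745). After cessation F9 had 44.4, 70.7, 69.2 and 65.8 FPKM in wild type and 76.5, 52.8, 45.7 and 66.2 FPKM in the knockout, a difference of -0.06 ± 0.21 (limma adjusted p = 0.968). Wild-type mouse 1 was again the lowest and knockout mouse 1 the highest liver.

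F5, the gene of the cofactor of factor Xa, had 46.1, 38.8, 37.0 and 20.9 FPKM in the 4 wild-type mice and 23.3, 32.5, 28.6 and 27.4 FPKM in knockout mice at 8 weeks. All knockout livers lay between wild-type mice 3 and 4, and the difference was -0.30 ± 0.24 (limma adjusted p = 0.538). After cessation it had 34.3, 43.0, 46.2 and 45.5 FPKM in wild type and 47.4, 35.8, 28.7 and 43.7 FPKM in the knockout, a difference of -0.13 ± 0.19 (limma adjusted p = 0.895). Knockout mouse 3 was the lowest and knockout mouse 1 the highest of the 8.

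Of the anticoagulants, Serpinc1 stood at 340.5, 370.3, 260.5 and 186 FPKM in the 4 wild-type mice at 8 weeks and at 207, 245, 149 and 178 FPKM in knockout mice. All wild-type livers but that of mouse 4 were above every knockout liver, mouse 4 lay among the knockouts, and the difference was -0.54 ± 0.26 (limma adjusted p = 0.355, the lowest of the 10 genes at this stage). After cessation it had 1064, 1885, 1856 and 1774 FPKM in wild type and 1890.1, 1461, 1004 and 1901 FPKM in the knockout. Wild-type mouse 1 and knockout mouse 3 were low together, and the difference was -0.08 ± 0.26 (limma adjusted p = 0.961).

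Proc (ENSMUSG00000024386, chr18:32123126-32139570, minus strand) had 298, 311, 271 and 146 FPKM in the 4 wild-type mice and 161, 234, 151 and 183 FPKM in knockout mice at 8 weeks. As for Serpinc1, 3 wild-type livers were above every knockout liver and wild-type mouse 4 was below them all, with a difference of -0.45 ± 0.27 (limma adjusted p = 0.444). After cessation it had 381, 396, 304 and 345 FPKM in wild type and 312, 344, 227 and 353 FPKM in the knockout, a difference of -0.22 ± 0.18 (limma adjusted p = 0.786). Proc was the one member for which wild-type mouse 1 was not low after cessation.

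At 8 weeks the median of the 10 members lay below that of all genes with each scaling, while the share of all genes that were lower depended on the scaling. With values as deposited the knockout mean was lower for 10 of 10 members, where 17.4% of the 11928 genes tested were lower and 82.6% higher, and the median difference was -0.37 for the members and 0.23 for all genes. An adjusted limma p under 0.05 was reached by 0 members, against 0.00838% of genes, which is 1 gene, the collagenase gene Mmp13 at 2.22 ± 0.23 (limma adjusted p = 8.11e-04; named after its value was seen). An unadjusted p under 0.05 was reached by 0 members and 14.4% of genes, and genotypes without overlap were found for 0 members and 6.9% of genes. Relative to the median gene the members lay between -0.35 (Fgb) and -0.79 (F10). With median-ratio scaling 46.8% of all genes were higher and all 10 members lower (median -0.69, against -0.02 for all genes). With quantile normalization 49.5% of genes were higher and 8 members lower (median -0.43, against -0.003 for all genes), Fgb at 0.07 and Fgg at 0.00 being the others.

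One library decided whether any member was called. Without wild-type mouse 4, the lowest liver for 6 of the 10 genes at 8 weeks, Serpinc1 was lower in the knockout by a log2 difference of -0.74 ± 0.23 (limma adjusted p = 0.0366) and Proc by -0.70 ± 0.23 (limma adjusted p = 0.0404), together with 1465 genes called in all. Without wild-type mice 1 and 2, between them the highest livers for all 10 genes, 7 members were lower and 3 (Fgb, Fgg and F9) higher, the median was -0.09, and the lowest adjusted p of a member was 1.00. The 10 differences at 8 weeks thus ranged with the choice of wild-type mice, and how many hepatocytes each liver held and how much of these RNAs each hepatocyte held cannot be told apart in bulk tissue.

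**Figure D2:**
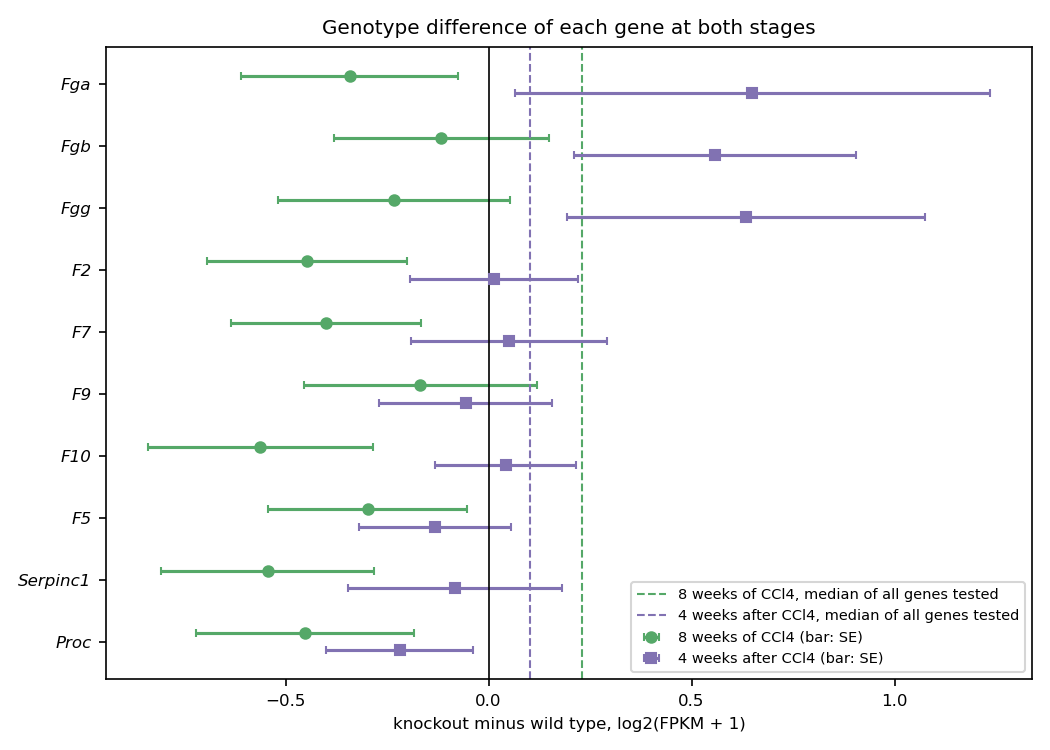
Difference between genotypes (horizontal axis, knockout minus wild type on the log2(FPKM + 1) scale) for each of the 10 genes at both stages; bars are standard errors from limma with 4 mice per genotype, and dashed lines the median of all genes tested. All 8-week points lie left of 0, and after cessation the 3 fibrinogen chain genes lie at 0.56 to 0.65 while the other 7 lie between -0.22 and 0.05.

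After cessation the means of the 3 chain genes were higher in the knockout, and of the other 7 genes 3 (F2, F7 and F10) were higher and 4 lower, all within 0.22 of 0. The difference between the chain genes and the other members was not tested. Across the members 4 of 10 were lower, against 29.3% of the 11032 genes tested, and the median was 0.03 against 0.10 for all genes. An adjusted limma p under 0.05 was reached by 0 members and 0.0% of genes, an unadjusted one by 0 members and 8.46% of genes, and genotypes without overlap by 0 members and 4.6% of genes. With median-ratio scaling and with quantile normalization 47.7% and 47.8% of all genes were higher, in place of 70.7%. F2, F7 and F10 were lower in the knockout with median-ratio scaling, at -0.13, -0.09 and -0.10, while the chain genes stayed higher with both other scalings. Without the 3 libraries that stand apart, 9 members were higher and Proc alone was lower, with a median of 0.13 against 0.09 for all genes.

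The difference between the 2 genotype effects, after cessation minus 8 weeks, was positive for 10 of 10 members, against 30.8% of the 10647 genes tested in both tables. With median-ratio scaling and with quantile normalization it was again positive for 10 members, and for 55.1% and 49.0% of all genes. It was largest for the chain genes, at 0.99 ± 0.67 for Fga, 0.87 ± 0.53 for Fgg and 0.67 ± 0.44 for Fgb, and smallest for F9 at 0.11 ± 0.38. Neither an adjusted nor an unadjusted limma p under 0.05 was reached by any member, where the shares of all genes were 0.0% and 2.76%, and the adjusted p was 1.00 for each. Leaving out 1 mouse moved it to between 0.43 and 1.29 for Fga, 0.44 and 1.12 for Fgg and 0.35 and 0.89 for Fgb, the lowest without wild-type mouse 1 after cessation and the highest without knockout mouse 2 after cessation for Fga and without wild-type mouse 4 at 8 weeks for Fgb and Fgg. Without the 5 mice that stand apart the value for F9 was -0.22.

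To relate the members to another hepatocyte product, each was set against albumin in the same library. Alb ranged from 28626 to 46316 FPKM in wild type and from 16973 to 28240 FPKM in the knockout at 8 weeks, without overlap, and from 28364 to 43598 and from 16731 to 45495 FPKM after cessation. Its difference did not pass the test at either stage, at -0.62 ± 0.29 (limma adjusted p = 0.347) and -0.23 ± 0.32 (limma adjusted p = 0.893). Per 1000 FPKM of Alb, Fgb stood at 25.5, 30.2, 31.9 and 21.6 in wild-type mice 1 to 4 and at 34.9, 37.9, 48.2 and 33.4 in knockout mice at 8 weeks. Every knockout liver was above every wild-type liver, with a log2 ratio higher by 0.50 ± 0.17 (exact permutation p = 0.0286, the smallest that 4 mice against 4 can give; adjusted over 20 ratios, 0.190). After cessation Fgb per 1000 FPKM of Alb was 13.7, 20.2, 27.6 and 22.9 in wild type and 39.8, 29.5, 47.6 and 27.8 in the knockout. The groups again did not overlap, though wild-type mouse 3 and knockout mouse 4 nearly met, and the log2 ratio was higher by 0.79 ± 0.28 (exact permutation p = 0.0286, adjusted 0.190). Adjusted over 20 ratios, a single ratio at the smallest possible p could not fall under 0.05.

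The other chain genes had the same direction relative to albumin. Fgg per 1000 FPKM of Alb was 52.5, 60.1, 57.6 and 38.4 in wild-type and 62.6, 64.2, 83.2 and 60.3 in knockout livers at 8 weeks, separated by the small step between wild-type mouse 2 and knockout mouse 4, with a log2 difference of 0.38 ± 0.18 (exact permutation p = 0.0286, adjusted 0.190). After cessation it was 19.9, 36.9, 55.3 and 44.9 in wild type and 83.3, 45.2, 94.8 and 55.6 in the knockout, overlapping only in knockout mouse 2 (0.86 ± 0.40, exact permutation p = 0.0571, adjusted 0.286). Fga per 1000 FPKM of Alb overlapped at both stages, at 0.27 ± 0.18 (exact permutation p = 0.2, adjusted 0.5) and 0.88 ± 0.55 (exact permutation p = 0.171, adjusted 0.5). The other 7 genes were higher relative to albumin by 0.05 (F10) to 0.45 (F9) at 8 weeks and by 0.01 (Proc) to 0.28 (F7) after cessation, all with overlap. Higher ratios to albumin without overlap were thus seen for 2 of 10 members at 8 weeks, where 15.7% of all genes with a level in every library showed them, and for 1 of 10 after cessation, where 1.07% did. The share at 8 weeks is near that of all genes. With the mean of 10 other secreted hepatocyte genes as the denominator, F2, F7, F10, Serpinc1 and Proc turned lower in the knockout at 8 weeks and F5, Serpinc1 and Proc after cessation, and the chain genes were higher by less. At 8 weeks the log2 difference was then 0.02 for Fga, 0.24 for Fgb and 0.12 for Fgg, with adjusted exact permutation p of 0.932, 0.381 and 0.743, and after cessation it was 0.73, 0.63 and 0.71, with adjusted exact permutation p of 0.743, 0.381 and 0.714.

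**Figure D3:**
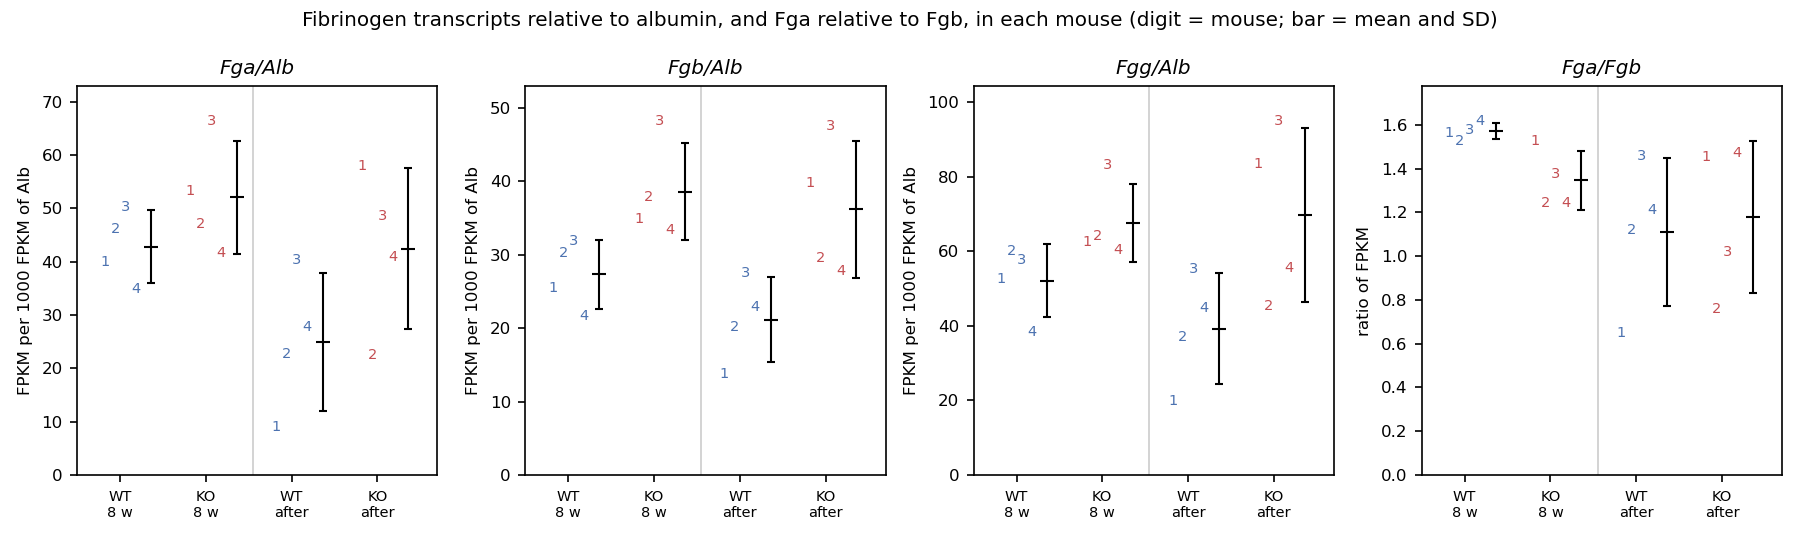
Fga, Fgb and Fgg in each mouse as FPKM per 1000 FPKM of Alb, and the ratio of Fga to Fgb (vertical axes start at 0), by genotype (WT, KO) and stage. Digits are mouse numbers and bars the mean and SD of 4 mice; Fgb relative to Alb is higher in every knockout liver than in every wild-type liver of its stage, and the ratio of Fga to Fgb is tight at 8 weeks and wide after cessation.

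The 3 chains are assembled into one protein in equal numbers, so that the ratios of their transcripts were compared as well. At 8 weeks the ratio of Fga to Fgb was 1.56, 1.53, 1.58 and 1.62 in wild-type mice 1 to 4 and 1.53, 1.24, 1.38 and 1.24 in knockout mice. Knockout mouse 1 and wild-type mouse 2 had the same ratio to 3 digits and the other knockouts lay below, with a log2 difference of -0.23 ± 0.07 (exact permutation p = 0.0286, adjusted over 6 ratios 0.171). Here too a single ratio at the smallest possible p could not pass after adjustment. Fgg to Fgb differed by -0.12 ± 0.06 and Fga to Fgg by -0.11 ± 0.09 (exact permutation p = 0.143 and 0.314, adjusted 0.429 and 0.629). After cessation Fga to Fgb was 0.650, 1.12, 1.46 and 1.21 in wild type and 1.45, 0.760, 1.02 and 1.47 in the knockout. The ratio was lowest in the same 3 libraries that were lowest in Fga, and the genotypes did not differ beyond this spread (0.09 ± 0.34, exact permutation p = 0.8, adjusted 0.96). Fga to Fgb thus had a log2 SD within a genotype of 0.03 and 0.14 at 8 weeks and of 0.50 and 0.46 after cessation.

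The spread between mice of one group differed between genes and between the tables. The within-group SD of log2 FPKM over the 16 livers was 0.77 for Fga, 0.61 for Fgg and 0.49 for Fgb, against 0.29 (F2) to 0.43 (F9) for the other 7 members and 0.43 for Alb. The high values of the chain genes came from the livers after cessation, where Fga stood at 1.04 against 0.35 at 8 weeks. F9 had the highest spread at 8 weeks, 0.51, while F10 had 0.45 at 8 weeks and 0.22 after cessation and Proc 0.41 and 0.24. These spreads come from different tables and were not tested against each other.

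Which members kept the most constant ratio to each other within groups differed between the tables. Of 45 pairs, Fgb and Fgg had the smallest SD of the log2 ratio at 8 weeks, 0.080, followed by Fga and Fgb at 0.10, and F2 and F9 had the smallest after cessation, 0.080, followed by F7 and Serpinc1 at 0.083. Pooled over both, F7 and Serpinc1 came first at 0.13. Next came Fgb and Fgg at 0.16, and F9 and F5, which encode a zymogen and a cofactor, also at 0.16. The neighbours F7 and F10 stood at 0.23. The least constant ratio was that of Fga to Proc, at 0.78. The points share library and total, so that these values are a description over 16 livers.

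**Figure D4:**
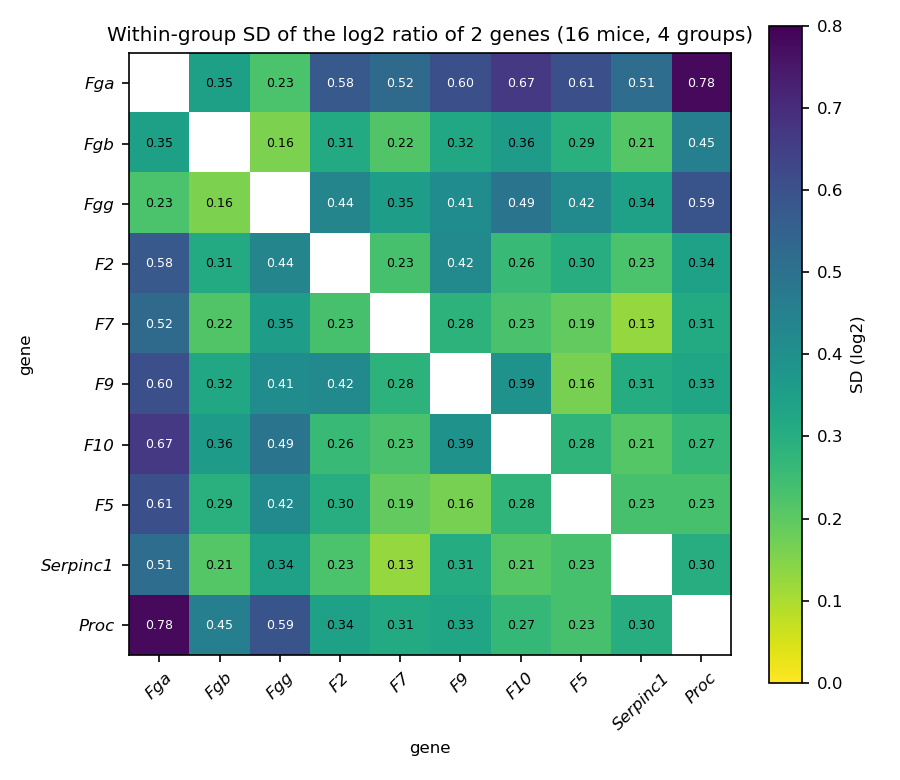
SD of the log2 ratio between each pair of the 10 genes within groups, pooled over 4 groups of 4 mice; small values (yellow) mark pairs with a steady ratio across mice of a group. F7 with Serpinc1 is the smallest at 0.13, Fga with Proc the largest at 0.78, and Fga has values of 0.51 or more with every gene outside the fibrinogen chains.

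Outside the 10 genes, likeness to fibrinogen was measured by the SD of the log2 ratio to the geometric mean of Fga, Fgb and Fgg within groups, over 16 livers and 3401 genes whose mean reached 10 FPKM in both tables. Cp, the gene of the copper-carrying acute phase protein ceruloplasmin, was nearest at 0.14. Hao1, a peroxisomal glycolate oxidase gene of hepatocytes, followed at 0.14, then Serping1, the C1 inhibitor gene, at 0.17, Cd302, a C-type lectin gene, at 0.18 and C4bp, a complement regulator gene, at 0.20. Cp after cessation stood at 303, 725, 1004 and 1131 FPKM in the 4 wild-type mice and at 1534, 595, 699 and 980 FPKM in knockout mice. As with Fga, wild-type mouse 1 was the lowest and knockout mouse 1 the highest liver.

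Other clotting and fibrinolysis genes made in liver were also mostly lower in the knockout at 8 weeks. Of 17 tested, 15 were lower in the knockout and 2 higher, with a median of -0.47, where 17.4% of all genes were lower, and 0 passed the adjusted test. Hrg, the gene of histidine-rich glycoprotein, stood at 299 ± 48.8 FPKM in wild type and 178 ± 32.1 FPKM in the knockout without overlap (-0.75 ± 0.23, limma adjusted p = 0.174). Plg, the plasminogen gene, differed by -0.67 ± 0.29 (limma adjusted p = 0.315) and F13b, a factor XIII subunit gene, by -0.62 ± 0.28 (limma adjusted p = 0.332). After cessation 11 were higher and 6 lower, with a median of 0.02, where 70.7% of all genes were higher. Of 11 secreted hepatocyte genes taken as a reference, albumin among them, 10 were lower in the knockout at 8 weeks, with a median of -0.39, and 9 after cessation, with a median of -0.11. The members' median at 8 weeks, -0.37, was thus close to that of this reference.

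Genes of the vitamin K cycle and of factor secretion had medians near the wild-type level, with Vkorc1 lower on average at 8 weeks. Of 6 genes, 5 were lower at 8 weeks (median -0.06) and 4 after cessation (median -0.01), with 0 past the adjusted test. Among all genes 17.4% and 29.3% were lower, with medians of 0.23 and 0.10. Vkorc1, the vitamin K epoxide reductase subunit gene that warfarin targets, stood at 131 ± 39.6 and 88.5 ± 14.5 FPKM at 8 weeks (-0.52 ± 0.25, limma adjusted p = 0.361). Hepatocyte transcription factor genes were split, with 5 of 11 higher at 8 weeks and 6 of 11 after cessation, and medians of -0.04 and 0.02, where 82.6% and 70.7% of all genes were higher.

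Acute phase genes were split at 8 weeks and higher in the knockout after cessation. Of 14 genes other than fibrinogen, 8 were higher at 8 weeks (median 0.21), where 82.6% of all genes were higher. After cessation 14 were higher (median 0.60), where 70.7% of all genes were, and 0 passed the adjusted test at either stage. An unadjusted limma p under 0.05 was reached by 1 gene at 8 weeks and 8 after cessation, all higher, against 14.4% and 8.46% of all genes. The 1 gene at 8 weeks was Saa1, a serum amyloid A gene, at 1.35 ± 0.46 with overlap between the genotypes (limma adjusted p = 0.231). Saa1 stood at 152, 224, 878 and 631 FPKM in the 4 wild-type mice after cessation and at 3215, 984, 3852 and 908 FPKM in knockout mice. All knockout livers were above all wild-type livers (2.30 ± 0.65, limma adjusted p = 0.499), and knockout mouse 3 was the highest. That liver was low in fibrinogen FPKM. Relative to albumin its Fgb and Fgg were the highest of the stage, at 47.55 and 94.81 per 1000 FPKM of Alb. The same held for its F2, F7, F9, F10, F5, Serpinc1 and Proc, in the liver with the lowest Alb of the stage, 16731 FPKM. Orm2, an orosomucoid gene, had 168, 259, 870.4 and 844 FPKM in wild type and 1977, 3190.0, 3016 and 779 FPKM in the knockout (2.21 ± 0.61, limma adjusted p = 0.499). Knockout mice 2 and 3, which had the least Fga FPKM of their group, had the most Orm2. Per 1000 FPKM of Alb, Fga was 57.91, 22.46, 48.55 and 40.89 in knockout mice 1 to 4, so that mouse 3 was then not low.

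In the IL-6 pathway 8 of 9 genes were higher in the knockout at 8 weeks (median 0.39) and 7 of 9 after cessation (median 0.35), near the 82.6% and 70.7% of all genes that were higher. None passed the adjusted test. At an unadjusted limma p under 0.05, reached by 14.4% and 8.46% of all genes, there were 2 higher at 8 weeks and 2 higher and 1 lower after cessation. Socs3, a feedback inhibitor induced by Stat3, stood after cessation at 4.01, 3.93, 4.79 and 4.20 FPKM in wild-type mice and at 12.1, 12.9, 10.2 and 6.98 FPKM in knockout mice. The groups did not overlap, and the difference was 1.11 ± 0.19 (limma adjusted p = 0.232). At 8 weeks the groups overlapped, at 6.45 ± 1.89 and 9.51 ± 3.98 FPKM (0.45 ± 0.28, limma adjusted p = 0.456).

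**Figure D5:**
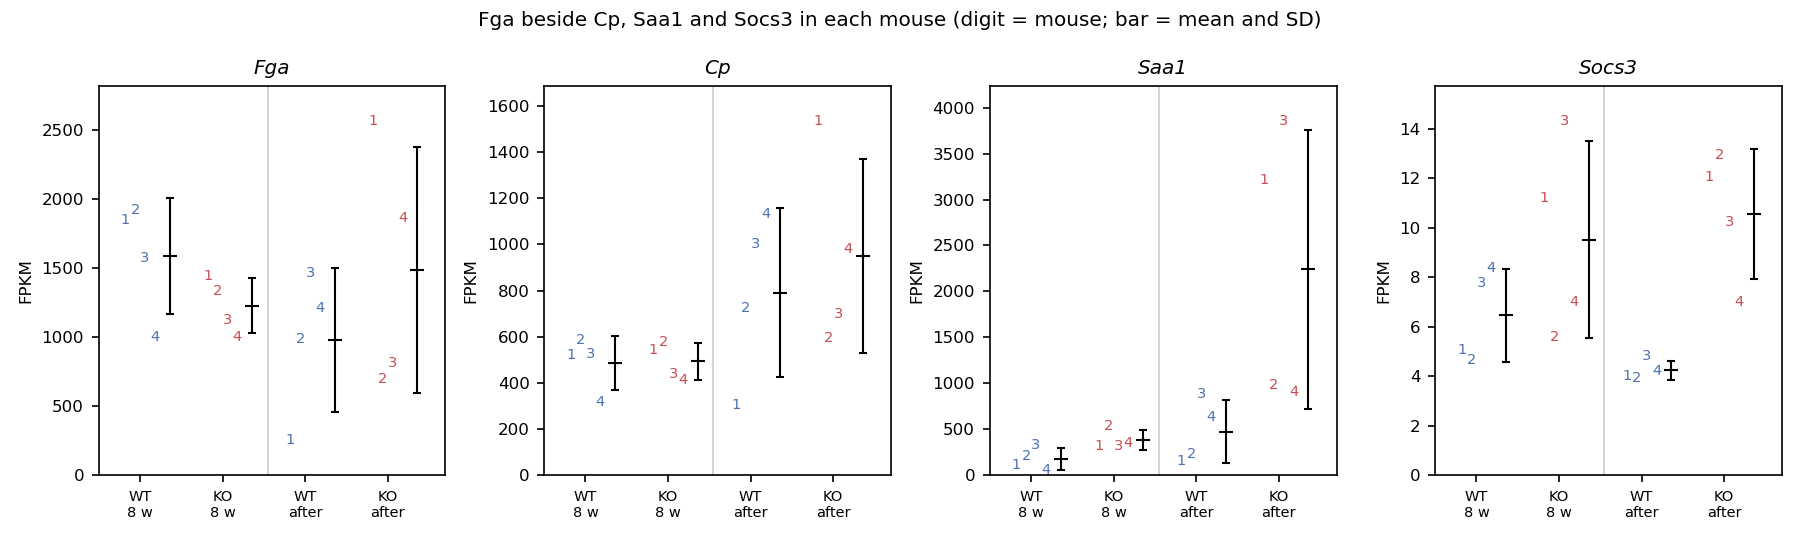
FPKM of Fga, of Cp (the gene nearest to fibrinogen), of Saa1 and of Socs3 in every mouse, by genotype (WT, KO) and stage; digits are mouse numbers and bars the mean and SD of 4 mice. After cessation Saa1 and Socs3 are higher in all knockout livers than in all wild-type livers, whereas Fga and Cp overlap between genotypes and share wild-type mouse 1 as the lowest liver.

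Of the markers of other cells that hold haemostasis genes, 0 passed the adjusted limma test at either stage. The knockout mean was higher for 9 of 10 monocyte and macrophage markers at both stages, for 8 of 8 and then 7 of 8 endothelial markers, and for 4 of 5 and then 3 of 4 platelet markers tested. Of these, 7, 6 and 3 at 8 weeks and 4, 0 and 0 after cessation had an unadjusted limma p under 0.05, as did 14.4% and 8.46% of all genes. Their sums overlapped between the genotypes, except that of the monocyte and macrophage markers after cessation. The summed level of 10 monocyte and macrophage markers ranged from 459 to 809 FPKM in wild-type and from 676 to 1505 FPKM in knockout livers at 8 weeks, and from 317 to 445 and from 529 to 892 FPKM after cessation. Endothelial markers, 8 genes, summed to 50.2 to 79.4 and 78.2 to 125 FPKM at 8 weeks and to 37.1 to 191 and 47.0 to 199 FPKM after cessation. Platelet and megakaryocyte markers, of which 8 of 10 are listed at 8 weeks and 10 of 10 after cessation, summed to 33.0 to 53.0 and 51.0 to 81.8 FPKM and then to 20.1 to 50.1 and 30.0 to 62.0 FPKM. The 3 of them with an unadjusted limma p under 0.05 at 8 weeks were Pf4, F13a1 and Clec1b. Whether their transcripts came from platelets or from other liver cells was not tested. No listed marker was at 0 in all libraries of a group, and the part of these cells in the members' levels was not tested. Haemostasis genes of vessel wall and cell surface were higher for 10 of 10 tested at 8 weeks (median 0.47) and 6 of 7 after cessation (median 0.47), where 82.6% and 70.7% of all genes were higher, and 0 passed the adjusted test. Tfpi, the gene of the tissue factor pathway inhibitor, stood at 4.03 ± 0.78 and 6.91 ± 1.23 FPKM at 8 weeks without overlap (0.65 ± 0.21, limma adjusted p = 0.187).

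Levels were not tested between the stages, because stage, table and library kit cannot be told apart. Side by side, the wild-type mean of Serpinc1 was 5.68 times as high in the table after cessation as in the 8-week table, and 5.54 times as high relative to Alb. Only 2.15% of 3402 genes whose mean reached 10 FPKM had a larger ratio relative to Alb. The other 9 members lay between 0.60 (Fga) and 1.42 (F10) relative to Alb, so that Serpinc1 alone among the 10 changed its place in the order. Serpinc1 per 1000 FPKM of Alb ranged from 6.51 to 8.91 over all 8 livers at 8 weeks and from 37.5 to 60.0 over all 8 after cessation.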

How the data were processed

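Bulk RNA sequencing values of 16 livers were used as deposited by the authors, 1 table per stage, taken as FPKM. The headers name no unit, and for the table after cessation TPM over a filtered gene set is possible. HISAT, Cufflinks and mm10 are named by the submitters' processing notes, and the sources used here give no version, annotation or strand setting. The kit was NEBNext Ultra at 8 weeks and NEBNext Ultra or VAHTS Universal after cessation, per the labels' protocols. Which library after cessation was made with which kit is not stated. A part of the kit in differences between mice or genotypes of that stage could therefore not be examined. Without counts, depth and counting error are unknown, and near-identical or overlapping genes could not be checked. FPKM are shares of a total, so abundant transcripts shift all others.

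Genes whose mean reached 0.5 FPKM in a table were fitted on log2(FPKM + 1) with limma 3.58.1 in R 4.3.3 (trended, robust prior variance; statmod 1.5.0), 2-sided, within each table. The difference of the genotype effects was an interaction term over 16 libraries. P-values were adjusted by Benjamini-Hochberg over all genes tested, with a threshold of 0.05. Ratios were compared on the log2 scale by 2-sided exact permutation over the 70 assignments of 8 mice. Libraries are labelled as numbered mice and were taken as 1 animal each.

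Positions come from GENCODE M21 on mm10, the files' build. RefSeq promoter windows were matched by symbol for 9 of 10 members. The members and gene lists were chosen with earlier results of these data known. Named were all members, Mfap2, Alb, up to 3 genes of each list with the smallest limma p at either stage, and the 5 genes nearest to fibrinogen; of the list genes the text gives some, picked after their values were seen. The steps were tested on simulated data, where 54 of 100 genes changed by 1 log2 unit were recovered at 8 weeks and 65 of 100 after cessation. Alternatives were other pseudocounts, filters, scalings and prior variances, a block on mouse number, another denominator, and leaving out mice.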

Additional observations from a re-analysis of the deposited data

Results flagged for a closer look

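In 4 groups 1 mouse stood far from the other 3 by Dixon's criterion, with a gap of at least 0.833 of the group's range. In all, 92 groups were examined, and chance alone marks about 1 in 20. F7 in knockout mouse 2 at 8 weeks was 30.47 FPKM, against 18.9 to 20.2 FPKM in the other knockout livers. Fgg in knockout mouse 3 at 8 weeks was 83.21 per 1000 FPKM of Alb, against 60.3 to 64.2 in the others. Serpinc1 in wild-type mouse 1 after cessation was 1064 FPKM, against 1774 to 1885 FPKM, in a library that also had 38.1% mitochondrial FPKM. F2 in knockout mouse 3 after cessation was 29.95 per 1000 FPKM of Alb, in the liver with the lowest Alb of the stage, 16731 FPKM.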

How the results depend on the processing

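No member was called after cessation or for the difference of the genotype effects under any alternative run, and at 8 weeks Serpinc1 and Proc were called without wild-type mouse 4 alone. At 8 weeks, with 1 gene called, the alternatives called 3 genes (pseudocount 0.1 and 0.5), 0 (median-ratio scaling), 2 (constant prior variance), 2 (without wild-type mice 1 and 2) and 1 to 1465 (leaving out each mouse in turn, with 0 to 2 members called). For the difference of the effects 1 gene was called without the 5 mice that stand apart and 0 to 1 when leaving out each mouse. The causes of these shifts were not tested. Mouse numbers did not pair the libraries (same-number correlations -0.44 to 0.37 at 8 weeks and -0.66 to 0.37 after cessation). With the replicate block on mouse number, 0 genes were called at each stage and for the difference. The log2 Fga to Fgb difference of -0.23 at 8 weeks had an adjusted p of 0.75 by exact sign flips over 4 pairs. With so few pairs a single ratio at the smallest possible sign-flip p cannot pass after adjustment. That value therefore decides nothing about this ratio.

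Several signs reversed, all in values that were not called. At 8 weeks the genotype difference turned to 0.072 (Fgb) and 0.0026 (Fgg) with quantile normalization and to 0.20 (Fgb), 0.17 (Fgg) and 0.27 (F9) without wild-type mice 1 and 2; leaving out each mouse gave -0.34 to 0.004 for Fgb and -0.46 to 0.027 for F9, and -0.74 to -0.41 for Serpinc1 and -0.70 to -0.34 for Proc. After cessation it turned to -0.13 (F2), -0.092 (F7) and -0.10 (F10) with median-ratio scaling, to -0.014 (F7) with quantile normalization, and to 0.052 (F9), 0.020 (F5) and 0.045 (Serpinc1) without the 3 libraries that stand apart. Leaving out each mouse then gave -0.11 to 0.12 (F2), -0.15 to 0.21 (F7), -0.21 to 0.065 (F9), -0.044 to 0.19 (F10), -0.23 to 0.002 (F5) and -0.28 to 0.12 (Serpinc1). The difference of the effects for F9 was -0.22 without the 5 mice and -0.083 to 0.40 when leaving out each mouse.

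For log2 ratios to Alb, the other secreted genes as denominator gave -0.091 (F2), -0.058 (F7), -0.21 (F10), -0.19 (Serpinc1) and -0.10 (Proc) at 8 weeks and -0.061 (F5), -0.0066 (Serpinc1) and -0.14 (Proc) after cessation. Without the mice that stand apart the ratio was -0.074 (F2) at 8 weeks and -0.018 (F7), -0.077 (F9), -0.11 (F5), -0.085 (Serpinc1) and -0.19 (Proc) after cessation. Leaving out each mouse gave -0.033 to 0.19 (F10) and -0.012 to 0.14 (Serpinc1) at 8 weeks, and -0.017 to 0.29 (F9), -0.081 to 0.20 (F5) and -0.16 to 0.18 (Proc) after cessation. For the chain ratios after cessation it gave -0.14 to 0.29 (Fga to Fgb), -0.027 to 0.18 (Fgg to Fgb) and -0.12 to 0.11 (Fga to Fgg). Read depth is unknown, so that its limit on low members such as F7 could not be given.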
